A study of Mus musculus with 7 samples.

Results

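The results below concern 10 genes tied to the resting state of T cells. They are the transcription factor genes Tcf7 (which encodes TCF1), Lef1, Bach2, Foxp1 and Satb1, the inhibitor genes Id2 and Id3, and Dapl1, Igfbp4 and Actn1, whose transcripts mark naive T cells. The genes were chosen by symbol, and 10 of 10 were found among the 27514 genes that the 7 libraries share. Single T cells from the spleen of male C57BL/6 mice aged 8 weeks were profiled by 10x Chromium 3′ sequencing of polyA RNA. There are 2 libraries of activated double-negative T cells (DNT cells, negative for both coreceptors CD4 and CD8), 2 of naive DNT cells, and 1 each of CD4 cells, CD8 cells and the whole TCRab gate. Every sort was on CD3, TCRαβ and the absence of NK1.1 and TCRγδ, and the naive DNT sort also left out cells that bind the αGal-CD1d or LPC-CD1d tetramer. Activated DNT cells are naive DNT cells stimulated in vitro for 3 days with anti-CD3, anti-CD28 and IL-2 at 20 ng/ml. No library came from cells cultured without stimulation, so stimulation and time in culture cannot be told apart. In both DNT groups replicate 1 was made with kit v2 and replicate 2 with kit v3, while CD4, CD8 and TCRab were made with kit v2. The labels do not say how many mice gave a library, so p-values measure the spread between these libraries, which may be technical.

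TCF1 and LEF1 are HMG-box proteins that bind the same short DNA core, work with β-catenin and with corepressors of the TLE family, and guide T cell development in the thymus. In mature T cells they are high in naive and memory cells and are lost as cells become effectors. BACH2, FOXP1 and SATB1 are further regulators of the quiescent state. ID2 and ID3 dimerise with E proteins and keep them from DNA, and in CD8 T cells ID2 is known from effector cells and ID3 from memory precursors.

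The genes are protein coding and lie, on GRCm38 with GENCODE vM21 bounds, on the plus strand for Lef1 (chr3:131110471-131224356), Bach2 (chr4:32238804-32586108), Id3 (chr4:136143497-136145755), Dapl1 (chr2:59484653-59505020) and Igfbp4 (chr11:99041244-99054392). Those on the minus strand are Tcf7 (chr11:52252371-52283014), Foxp1 (chr6:98925338-99522721), Id2 (chr12:25093799-25097140), Satb1 (chr17:51736187-51833290) and Actn1 (chr12:80167547-80260371).

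Total UMI counts (unique molecular identifiers, 1 per captured transcript) in the cells kept lay between 17358231 and 53653855 per library. The median cell had 15795 and 9386 UMIs in the activated DNT libraries, 4119 and 7556 in the naive DNT libraries, and 3987 to 4899 in the other 3. At least 2 of 7 T cell markers were found in 96.3% to 100% of the cells of a library. Of the defining markers, Cd4 was at 0.06 CPM and Cd8a at 0.99 and 0.32 CPM in the naive DNT libraries, and Cd8b1 at 15.2 and 5.23 CPM, beside 22.3 CPM in CD4 and 1306 CPM in CD8. Cells with at least 3 markers of B, myeloid or red cells numbered 4 and 6 in the activated DNT libraries, and 197 (4.87%) and 166 (2.47%) in the naive DNT ones. Levels below are CPM, that is UMIs scaled to the same total over the shared genes, summed over all cells kept, so fewer cells with a transcript and less of it per cell cannot be told apart. Intervals cover counting error only. In activated against naive DNT cells 6 of 6 proliferation genes were higher, with a median log2 fold change of 3.84. Of 7 T cell markers 0 were called by edgeR (2 lower at an unadjusted p under 0.05, and 2 lower by DESeq2, beside 9.26% of all genes lower by DESeq2). Their median log2 fold change was -0.95, against -0.05 over all genes tested. With the replicate number as a block, edgeR called 4 of the 7 lower (Cd247, Cd3g, Lck and Thy1), beside 19.8% of all genes lower. The part of cell cycle and of RNA content in the results below was not tested, beyond the alternatives given beside them.

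**Figure D1:**
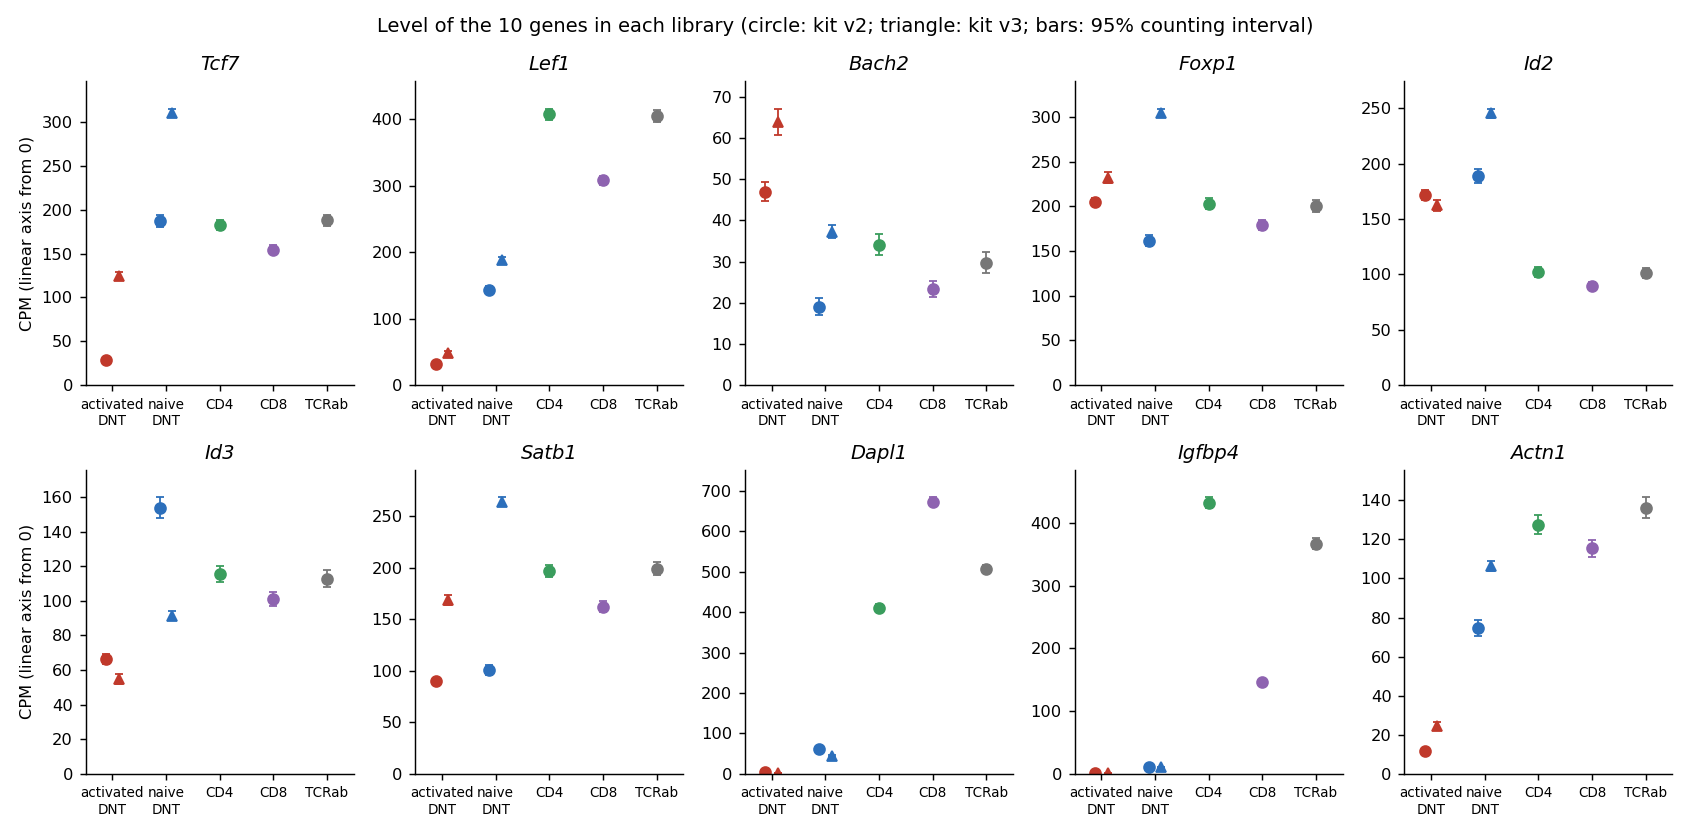
Level of each of the 10 genes in CPM on a linear axis from 0, in 2 activated DNT, 2 naive DNT, CD4, CD8 and TCRab libraries; circles are kit v2, triangles kit v3, and bars exact Poisson 95% intervals. Dapl1 and Igfbp4 are far lower in all 4 DNT libraries than in CD4, CD8 and TCRab, with Dapl1 at 61.7 and 43.4 CPM in the naive ones. Lef1 steps down from CD4, CD8 and TCRab to naive and then to activated DNT cells, and Tcf7 is lowest in activated replicate 1.

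The 4 genes called lower in activated DNT cells against naive ones, in the fit without the block, were Lef1 and the markers Dapl1, Igfbp4 and Actn1. Lef1 had 31.1 and 48.0 CPM in the activated libraries, against 144 and 188 CPM in the naive ones. Both activated libraries lay below both naive libraries, and the log2 fold change was -2.23 ± 0.41 (SE; edgeR quasi-likelihood test, 2 against 2 libraries, adjusted p = 0.0203). Within a kit the log2 ratio was -2.21 for the v2 and -1.97 for the v3 libraries. The call was lost without activated replicate 1 (edgeR adjusted p = 0.0661) and without naive replicate 1 (0.0674), while Dapl1, Igfbp4 and Actn1 were called whichever of the 4 libraries was left out. Dapl1, a gene of resting T cells named for its likeness to a death-associated protein, had 3.75 and 1.59 CPM in activated cells, against 61.7 and 43.4 CPM in naive cells. It showed the lowest log2 fold change of the 10 genes, -4.39 ± 0.74 (SE; edgeR adjusted p = 0.0182). Igfbp4, which encodes a binding protein of insulin-like growth factors, had 1.22 and 0.515 CPM in activated cells and 10.7 and 10.3 CPM in naive cells. Its log2 fold change was -3.64 ± 0.67 (SE; edgeR adjusted p = 0.0206), from naive levels that were already low. Actn1, which encodes α-actinin 1, a crosslinker of actin filaments, had 11.7 and 24.7 CPM in activated cells and 74.8 and 106 CPM in naive cells. Its log2 fold change was -2.50 ± 0.41 (SE; edgeR adjusted p = 0.0155).

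Of the 10 genes, 4 were thus lower and 0 higher in activated DNT cells, where 5.06% of the 12325 genes tested were lower and 5.32% higher, 10.4% in all. At an unadjusted edgeR p under 0.05, 5 were lower and 1 (Bach2) higher, and the share of all genes at that p is not given here. DESeq2 called 5 lower, Tcf7 being the fifth, and 0 higher, beside 9.26% of all genes lower and 9.79% higher. The median log2 fold change of the 10 was -1.57, against -0.05 over all genes tested. With the replicate number, which is the library kit, as a block, edgeR called 6 lower (adding Tcf7 and Id3) and 1 higher (Bach2), beside 19.8% of all genes lower and 19.9% higher. Activated cells held more UMIs than naive ones, and the calls depend on how that is treated. With each cell thinned to 1500 UMIs, Dapl1 and Igfbp4 were still called, Lef1 and Actn1 were not (edgeR adjusted p = 0.107 and 0.0957), and without cells above 2 times their library's median UMI count 0 of the 10 were called, among 34 genes called in all. Under that last setting 4 of the 10 had an unadjusted p under 0.05, and the log2 fold changes were -1.78 for Lef1, -4.37 for Dapl1, -3.71 for Igfbp4 and -2.01 for Actn1.

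Where Lef1, Dapl1, Igfbp4 and Actn1 start is shown because they are the 4 called lower without the block, and because TCF1 and LEF1 bind a known core. RefSeq's promoter table for GRCm38.p6 matched 10 of 10 genes with 20 windows of 300 bases, from 250 before to 50 after an annotated start. The core searched was CTTTGA or CTTTGT on either strand. It was present in 6 of the 20 windows, from Lef1, Bach2, Foxp1 and Satb1, and in 10249 of 32851 windows (31.2%) over all genes. Lef1 has 4 windows, and the match lies in that of a start inside the gene (chr3:131156044-131156293, plus strand). The core stands there at positions -180, -146 and -120 from the start, and capitals mark it in the sequences, which give the 250 bases before each start from 5′ to 3′ on the gene's strand. Dapl1 (chr2:59484403-59484652, plus strand), Igfbp4 (chr11:99040994-99041243, plus strand) and Actn1 (chr12:80260364-80260613, minus strand) have 1 window each, with no match in these letters. Libraries of 3′ ends do not tell which start a transcript came from, and a match is a description of letters only.
Lef1: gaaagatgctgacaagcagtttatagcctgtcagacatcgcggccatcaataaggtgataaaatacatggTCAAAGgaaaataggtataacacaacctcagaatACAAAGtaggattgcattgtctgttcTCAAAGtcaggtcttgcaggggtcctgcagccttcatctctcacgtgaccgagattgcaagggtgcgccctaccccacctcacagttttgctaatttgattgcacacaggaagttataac
Dapl1: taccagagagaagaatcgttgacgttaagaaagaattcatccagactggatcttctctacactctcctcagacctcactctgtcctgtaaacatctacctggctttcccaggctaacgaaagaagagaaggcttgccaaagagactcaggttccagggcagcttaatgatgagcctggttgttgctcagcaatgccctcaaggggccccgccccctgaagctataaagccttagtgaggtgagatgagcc
Igfbp4: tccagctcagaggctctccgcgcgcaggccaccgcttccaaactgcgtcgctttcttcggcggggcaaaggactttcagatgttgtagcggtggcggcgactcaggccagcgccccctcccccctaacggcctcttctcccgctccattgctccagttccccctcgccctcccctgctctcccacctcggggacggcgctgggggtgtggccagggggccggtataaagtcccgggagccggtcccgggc
Actn1: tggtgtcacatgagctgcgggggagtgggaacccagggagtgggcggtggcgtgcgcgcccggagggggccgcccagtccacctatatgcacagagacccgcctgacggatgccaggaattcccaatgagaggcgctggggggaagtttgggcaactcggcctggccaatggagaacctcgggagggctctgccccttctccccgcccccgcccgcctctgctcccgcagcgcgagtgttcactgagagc

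Tcf7 was not called in the fit without the block. It had 28.8 and 124 CPM in activated DNT libraries, against 187 and 311 CPM in naive ones. The groups did not overlap, but the activated replicates differed by 4.32-fold. The log2 fold change was -1.93 ± 0.60 (SE; edgeR adjusted p = 0.0846), and -2.14 ± 0.38 with the replicate block (adjusted p = 0.00503). Within a kit the log2 ratio was -2.70 for the v2 and -1.32 for the v3 libraries. Without activated replicate 2, the higher of the pair, the edgeR adjusted p was 0.0101, and without activated replicate 1 it was 0.394.

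The other 5 genes were not called without the block. Id3 had 66.2 and 54.8 CPM in activated cells and 154 and 91.2 CPM in naive cells, with no overlap. Its log2 fold change was -1.21 ± 0.56 (SE; edgeR adjusted p = 0.207), and -1.11 ± 0.24 with the replicate block (adjusted p = 0.00402). Id2 had 172 and 163 CPM in activated cells and 189 and 245 CPM in naive cells, and its log2 fold change was -0.48 ± 0.45 (edgeR adjusted p = 0.542). So the effector-linked ID gene was not higher in the activated libraries, and both activated values lay under both naive ones. Bach2, which represses effector genes, was the one gene with a positive value: 46.9 and 64.0 CPM in activated cells and 18.9 and 37.3 CPM in naive cells. Its log2 fold change was 0.89 ± 0.37 (edgeR adjusted p = 0.167), and 0.91 ± 0.23 with the replicate block (adjusted p = 0.0109). Bach2 is also a B cell gene, and without cells that carry markers of other types the naive libraries had 19.4 and 36.3 CPM. Foxp1, which restrains naive T cells from responding, had 205 and 232 CPM in activated cells and 162 and 305 CPM in naive cells, so the naive values lay on either side of the activated ones. Its log2 fold change was -0.16 ± 0.44 (edgeR adjusted p = 0.853). Satb1, a chromatin organiser, had 89.9 and 168 CPM in activated cells and 101 and 264 CPM in naive cells. The groups overlapped, each kit v3 library was above its kit v2 partner, and the log2 fold change was -0.58 ± 0.47 (edgeR adjusted p = 0.471).

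**Figure D2:**
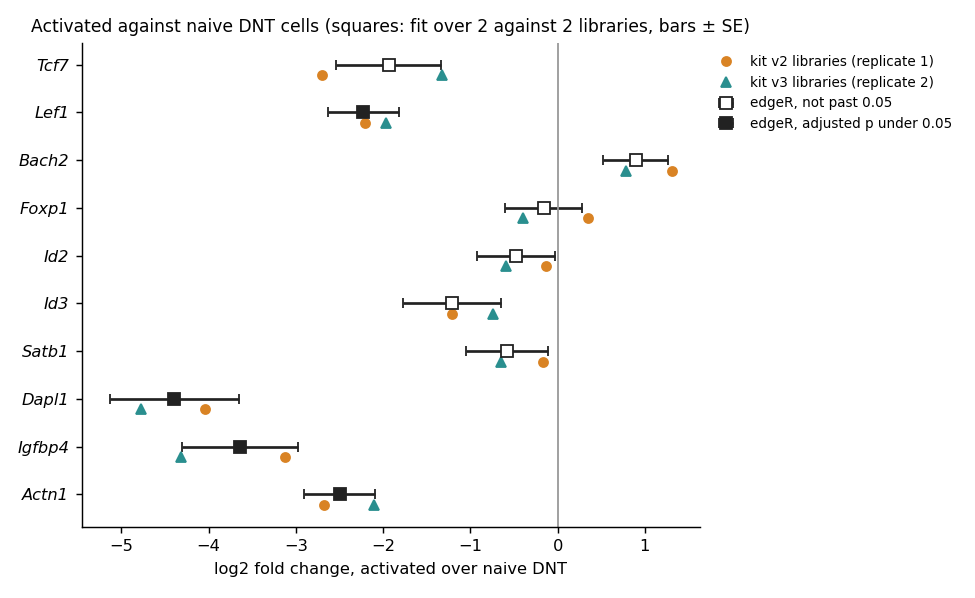
Log2 fold change of each of the 10 genes in activated over naive DNT cells: squares are the edgeR fit over 2 against 2 libraries with bars of ± SE (filled where the adjusted p is under 0.05), circles the kit v2 and triangles the kit v3 libraries alone. Lef1, Dapl1, Igfbp4 and Actn1 are filled and left of 0, Bach2 is right of 0 in both kits, and the 2 kits lie farthest apart for Tcf7.

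Partners and relatives of the 10 genes were read in the same fit. Of 32 partner and family genes, 26 were tested, and the rest, such as Id4, Foxp3 and Actn3, were too low. In activated cells 4 were lower and 1 higher, and the median log2 fold change was -0.53. The lower ones were Actn2, an α-actinin of the same family as Actn1 (-3.47 ± 0.41, SE; edgeR adjusted p = 0.00813), Foxo1, a forkhead factor of quiescent cells (-2.06 ± 0.39, adjusted p = 0.0232), and Mafk and Maff, small MAF proteins of the kind that pair with BACH2 (-2.34 ± 0.49 and -2.84 ± 0.65, edgeR adjusted p = 0.0296 and 0.0400). The higher one was Igfbp7, a relative of Igfbp4 (6.62 ± 1.27, edgeR adjusted p = 0.0353), at 33.6 and 4.02 TMM-scaled CPM in activated cells and 0.223 and 0.177 TMM-scaled CPM in naive cells. Axin2, a widely used target of β-catenin with TCF and LEF factors, had a log2 fold change of -1.95 ± 0.56 that did not pass (edgeR adjusted p = 0.0695). With the replicate block 3 partners were higher and 8 lower. Leaving out 1 library raised the edgeR adjusted p to as much as 0.335 for Igfbp7, 0.112 for Maff, 0.0938 for Foxo1 and 0.0916 for Mafk, and to 0.0138 for Actn2.

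Among 16 other genes of resting T cells, edgeR called 9 lower and 0 higher in activated cells, with a median log2 fold change of -2.22. At an unadjusted edgeR p under 0.05, 14 were lower and 0 higher. DESeq2 called 13 lower and 0 higher, beside 9.26% of all genes lower. The 9 genes called by edgeR included Il6ra, an interleukin 6 receptor chain (-3.88 ± 0.49, SE; edgeR adjusted p = 0.00928) and Klf2, which drives exit from lymphoid tissue (-4.55 ± 0.84, adjusted p = 0.0213). Themis, Klf3, Foxo1, Bcl11b and Txk also fell, by 2.97, 2.38, 2.06, 2.02 and 2.98 on the log2 scale. Of 16 effector and memory genes, Gzmb, the granzyme of cytotoxic cells (7.31 ± 0.68, SE; edgeR adjusted p = 0.00633), and Zeb2, an effector transcription factor (1.94 ± 0.37, adjusted p = 0.0221), rose. The chemokine gene Ccl5 (-4.61 ± 0.77, SE; edgeR adjusted p = 0.0159), the chemokine receptor gene Cxcr3 (-1.79 ± 0.45, adjusted p = 0.0488) and Tox, a factor of chronically stimulated T cells (-1.93 ± 0.39, adjusted p = 0.0269), fell. With the replicate block the resting list gave 14 lower and 0 higher, Klf2 no longer among them (edgeR adjusted p = 0.0855), and the effector list 2 higher and 5 lower. Leaving out 1 library gave 5 to 13 resting genes lower, and raised the edgeR adjusted p to as much as 0.252 for Cxcr3, 0.116 for Zeb2 and 0.0850 for Tox. With cells thinned to 1500 UMIs 3 resting genes were lower, Il6ra and Themis among them, and without cells of high UMI count 0 were (9 at an unadjusted p under 0.05).

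Levels differed with the RNA content of a cell, and the 2 activated libraries did so in different ways. Each library was cut into 3 equal groups of cells by UMI count, and levels were summed within each. In activated replicate 2, Tcf7 was at 368 CPM in the lowest group, 215 CPM in the middle one and 69.3 CPM in the highest. The lowest group of that library thus lay above all 3 groups of naive replicate 2, at 336, 325 and 291 CPM. In activated replicate 1 the values were 52.0, 26.5 and 24.3 CPM, all below the 224, 198 and 162 CPM of naive replicate 1. Lef1 had 137, 64.8 and 32.5 CPM from the lowest to the highest group of activated replicate 2, Actn1 93.8, 27.6 and 15.5 CPM, and Satb1 320, 220 and 136 CPM. In activated replicate 1 the slopes were smaller for Lef1 (42.6, 30.7 and 28.5 CPM) and Satb1 (132, 114 and 68.5 CPM), and Actn1 was flat at 12.8, 11.7 and 11.5 CPM. Dapl1 and Igfbp4 did not share this slope: in the lowest group of activated replicate 2 they were at 0.911 and 0.455 CPM. Bach2 was near flat in that library at 75.6, 62.2 and 63.0 CPM, but in activated replicate 1 it was at 33.4, 39.6 and 53.5 CPM. Id2 was lowest in the lowest group of both, at 131, 133 and 200 CPM in activated replicate 1 and 124, 150 and 171 CPM in activated replicate 2. Klf2 had 646, 226 and 30.4 CPM and Gzmb 142, 185 and 4650 CPM over the same 3 groups of activated replicate 2, and in activated replicate 1 Klf2 had 71.4, 20.1 and 9.93 CPM and Gzmb 904, 2593 and 2173 CPM. The part of these cells of low UMI count in the difference between the groups was not tested.

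**Figure D3:**
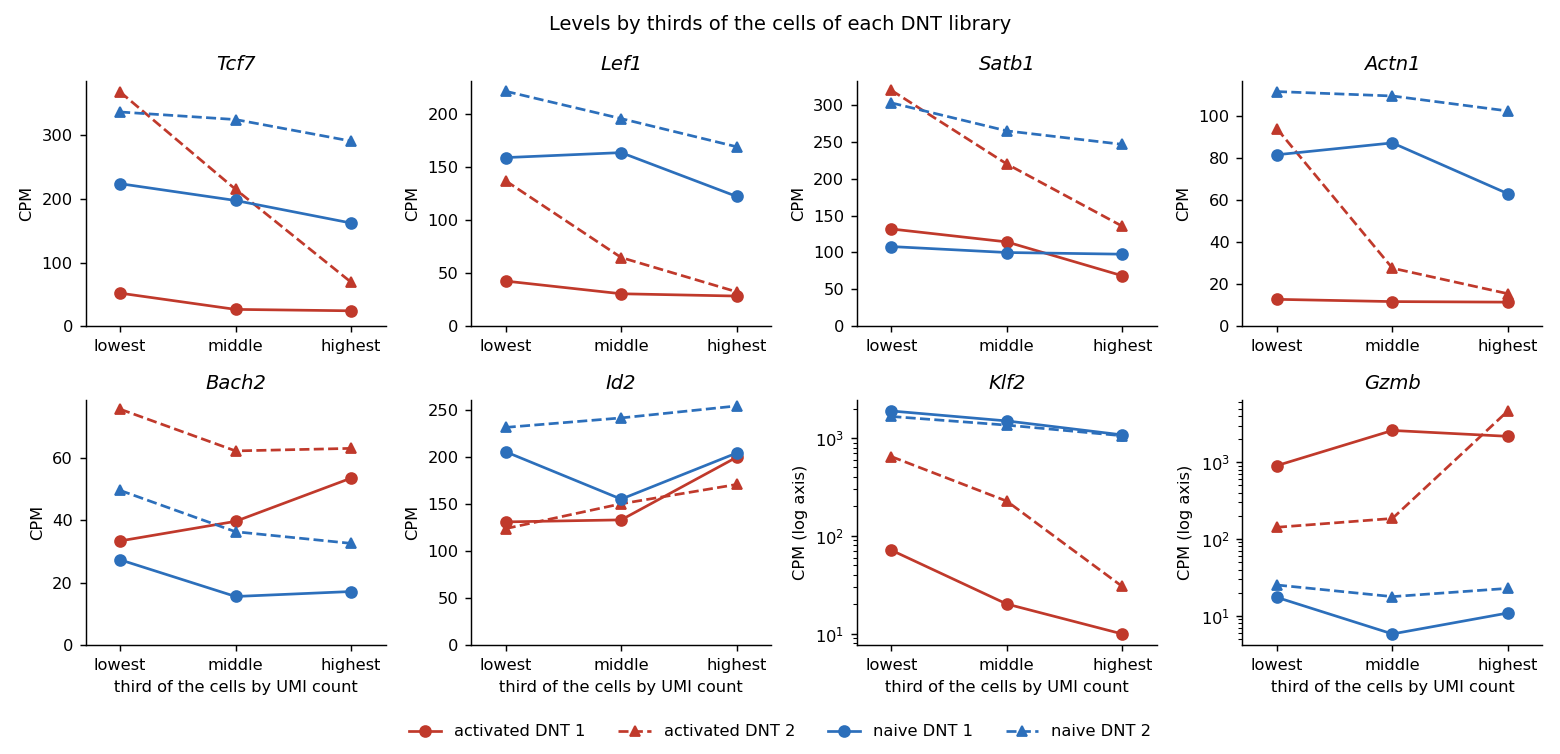
CPM of 8 genes in the lowest, middle and highest of 3 equal groups of cells by UMI count, in 2 activated (red) and 2 naive (blue) DNT libraries; circles and solid lines are replicate 1, triangles and broken lines replicate 2, and the Klf2 and Gzmb axes are logarithmic. In activated replicate 2 Tcf7, Lef1, Satb1, Actn1 and Klf2 decline toward cells of high UMI count while Gzmb is highest there at 4650 CPM.

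Across the 5 groups the 10 genes did not share an order. Lef1, Dapl1, Igfbp4 and Actn1 were lower in both activated DNT libraries than in both naive ones, and lower there than in CD4, CD8 and TCRab. Lef1 was at 407 CPM in CD4, 404 CPM in TCRab and 308 CPM in CD8, and the first 2 do not differ beyond counting error. Tcf7 was at 183, 154 and 188 CPM in CD4, CD8 and TCRab. Naive DNT replicate 1, at 187 CPM, lay within counting error of CD4 and TCRab, and naive replicate 2, made with the other kit, lay at 311 CPM. Tcf7 in the naive DNT libraries was therefore not below that of CD4 or CD8 cells, whereas Lef1 was. Satb1, Foxp1 and Bach2 differed by 2.62-, 1.88- and 1.97-fold between the naive replicates, so that naive DNT cells lay on both sides of CD4 and TCRab for these 3 genes. Id2 was at 102, 89.6 and 101 CPM in CD4, CD8 and TCRab, under all 4 DNT libraries.

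Naive DNT cells were set against each single library by size, with no test, since CD4, CD8 and TCRab have 1 library each. A gene counted when both naive libraries were at least 2-fold apart from it in the same direction and every library on the higher side had at least 20 CPM. Against CD4, 0 of the 10 genes were higher and 3 lower (Lef1, Dapl1 and Igfbp4), where 5.51% of 4031 genes at that level were higher and 1.34% lower (6.85% in all). Against CD8, Id2 was higher and Dapl1 and Igfbp4 lower, where 4.87% of 3944 genes were higher and 0.532% lower (5.4% in all). Against TCRab the same 3 as for CD4 were lower and 0 higher, where 4.16% of 4082 genes were higher and 1.18% lower (5.34% in all). The largest gap was that of Igfbp4 to CD4, with naive over CD4 ratios of 0.0247 (95% interval 0.0212 to 0.0285) and 0.0237 (0.0217 to 0.0259). For Dapl1 the ratios to CD8 were 0.0915 (0.0859 to 0.0974) and 0.0644 (0.0616 to 0.0672). Lef1 stood at 0.353 and 0.463 of CD4, and at 0.467 and 0.612 of CD8. Id2 stood at 2.11 and 2.74 times CD8, and at 1.85 and 2.41 times CD4. It no longer met the rule against CD8 when cells were thinned, and without naive replicate 1 it met it against CD4 and TCRab as well, as Tcf7 did against CD8. All 3 single libraries were made with kit v2, and naive replicate 2 was not, so kit cannot be told apart from cell type in that replicate.

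Other lists were read by the same rule. Of 15 resting genes at that level, Il6ra was lower in naive DNT cells than in CD4, CD8 and TCRab, and Txk, a Tec family kinase, was higher than in all 3. Ccr7, a chemokine receptor gene named here after its values were seen, was lower than all 3 but short of 2-fold in naive replicate 2, at 70.6 and 154 CPM in naive DNT cells, against 287 CPM in CD4, 198 CPM in CD8 and 274 CPM in TCRab. Txk stood at 314 and 381 CPM in naive DNT cells, against 132 CPM in CD4, 133 CPM in CD8 and 122 CPM in TCRab. Of the partner genes, Mafk and Lrrfip2, an activator of β-catenin signalling, were higher in naive DNT cells than in each of the 3. Of 12 effector genes at that level, 8 were higher in naive DNT cells than in CD4, 6 than in CD8 and 7 than in TCRab, and 0 were lower. Gzma, another granzyme, stood out against CD4 at 60.2 and 33.7 CPM in the naive libraries and 0.646 CPM in CD4. Ccl5 had 11766 and 6407 CPM in the naive libraries, against 176 CPM in CD4 and 1555 CPM in CD8. The 10 genes' median log2 ratio was -0.19 against CD4, 0.22 against CD8 and -0.10 against TCRab, beside 0.18, 0.33 and 0.11 over all genes at that level.

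Between the CD4 and CD8 libraries the markers split. Igfbp4 was 2.94 times as high in CD4 as in CD8 (95% interval 2.83 to 3.06), at 432 and 147 CPM. Dapl1 ran the other way, with 411 CPM in CD4 and 674 CPM in CD8, a ratio of 0.609 (0.593 to 0.625). Bach2 had a ratio of 1.46, Lef1 of 1.32, and the other 6 genes of 1.104 to 1.21. The TCRab library allows the same comparison within 1 preparation. Its 710 cells with a Cd4 UMI and no Cd8a or Cd8b1 UMI had 471 CPM of Igfbp4, against 272 CPM in 1849 cells with Cd8a or Cd8b1 and no Cd4, a ratio of 1.73 (1.62 to 1.85). Dapl1 was at 427 and 581 CPM in the same classes, a ratio of 0.735 (0.690 to 0.783). All 10 ratios lay on the same side of 1 as between the CD4 and CD8 libraries, but the interval included 1 for 4 genes (Tcf7, Id2, Id3 and Satb1). Cd8b1 was at 22.3 CPM in the CD4 library, so a class set by 1 UMI holds some cells of the other kind. With at least 2 UMIs required (172 and 1251 cells), the ratios were 1.97 for Igfbp4 and 0.639 for Dapl1. Lef1 (0.928, interval 0.811 to 1.06) and Bach2 (0.621, 0.314 to 1.12) changed side, with intervals that included 1. Id2 then had a ratio of 1.68 (1.38 to 2.03).

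Shares of cells were counted after each cell was thinned to 1500 UMIs, which left out 0 and 75 cells in the activated libraries, 43 and 80 in the naive ones, and 10 to 38 in the others. A Tcf7 UMI was then found in 5.42% and 25% of activated DNT cells, 25.5% and 36.1% of naive DNT cells, 24.5% of CD4, 20.4% of CD8 and 24.7% of TCRab cells. Unthinned, the same shares were 37.3% and 64.9% of activated cells, 52.0% and 82.2% of naive cells, and 51.0% to 51.6% in CD4, CD8 and TCRab. A Lef1 UMI was found in 5.42% and 10.5% of thinned activated cells, 19.9% and 24.1% of naive cells, 43.8% of CD4, 37.2% of CD8 and 44.8% of TCRab cells. Dapl1 was found in 0.447% and 0.204% of activated cells, 6.07% and 4.23% of naive cells, 33.3% of CD4 and 49.5% of CD8 cells. Igfbp4 was found in 0.112% and 0.0678% of activated cells, 1.1% and 1.14% of naive cells, 37.5% of CD4 and 17.4% of CD8 cells. The 111 thinned cells of naive replicate 2 with B cell markers give a background for transcripts free in the droplets, at a median of 5382 UMIs against 7621 in cells with T cell markers. No doublet caller was run, so doublets with T cells cannot be told apart from free transcripts in them. Tcf7 was found in 5.41% of the B-marked cells against 36.8% of the T-marked ones, Lef1 in 3.60% against 24.5%, and Dapl1 in 0%, which allows up to 3.27%, against 4.32%. Igfbp4 was found in 1.80% (95% interval 0.219% to 6.36%) of the B-marked cells, which is 2 cells, and 1.14% of the T-marked ones. Unthinned, the shares were 1.79% and 3.65%, so for Igfbp4 a background could not be told apart from its share in naive DNT cells.

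The number of these genes seen in a cell was counted over the 9 without Id2, since Id2 is linked to effector cells. Thinned activated cells had a mean of 0.644 and 1.18 of the 9 genes, naive cells 1.21 and 1.65, CD4 cells 2.28, CD8 cells 2.02 and TCRab cells 2.31. Cells with 3 or more made up 1.79% and 11.9% of activated cells, 10.9% and 23.1% of naive cells, 41.5% of CD4, 32.6% of CD8 and 42.1% of TCRab cells. Cells with 0 made up 49.6% and 32.1% of activated cells, 28.3% and 17.5% of naive cells, and 7.99% to 9.90% in the other 3. Activated replicate 2 thus lay close to naive replicate 1 on this count, though their kits differed. Within a kit the activated mean was below the naive one, at 0.644 against 1.21 for v2 and 1.18 against 1.65 for v3. Both naive libraries lay under CD4, CD8 and TCRab. Lef1, Dapl1, Igfbp4 and Actn1 were each found in a smaller share of both naive libraries than of those 3. That did not hold for Tcf7, Bach2, Foxp1, Id3 and Satb1. An Id2 UMI was found in 16.04% and 18.1% of naive cells with Tcf7 or Lef1, against 18.5% and 27.0% of naive cells with neither. In activated replicate 2 the shares were 9.78% and 19.1%.

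Detection of 2 genes in the same cell was compared with the product of their separate shares for the 45 pairs, and a pair was read where at least 20 cells were expected or seen. Tcf7 and Lef1 were seen together 1.63 times as often as that product gives in activated replicate 2, 1.08 and 1.11 times in the naive libraries, and 1.05 to 1.08 times in CD4, CD8 and TCRab. In naive replicate 2 these were 641 cells against 578 expected. Cells of low UMI count in activated replicate 2 had more Tcf7 and Lef1 and less Id2, and the part of this in that library's ratios was not tested. Outside activated replicate 1, most pairs with Id2 were below 1. These were 6 of 6 that could be read in activated replicate 2, and 7 of 8 and 7 of 9 in the naive libraries. They were 8 of 9 in CD4, 6 of 9 in CD8 and 8 of 9 in TCRab. In activated replicate 1 the pairs of Id2 that could be read had 1.03 with Foxp1, 1.03 with Satb1 and 0.944 with Id3. The exceptions in naive cells were Dapl1 in replicate 1 (1.03), and Satb1 (1.01) and Igfbp4 (1.40) in replicate 2. Tcf7 with Id2 had ratios of 0.469 in activated replicate 2, 0.837 and 0.838 in naive DNT replicates 1 and 2, and 0.876, 0.993 and 0.898 in CD4, CD8 and TCRab. Id2 with Actn1 had 0.678 and 0.676 in the naive libraries, and Bach2 with Id2 0.730 and 0.696. Of 33 pairs that could be read in both naive libraries, 13 were above 1 and 7 below 1 in both, 0 reached 1.5 in both, and the median was 1.05. The highest ratio for Tcf7 was with Actn1 in activated replicate 2, at 2.38 (53 cells against 22.2 expected), the library whose cells of low UMI count had more of both genes. Among naive pairs Lef1 with Dapl1 had 1.22 and 1.43. Most pairs thus sat close to independence at this depth.

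**Figure D4:**
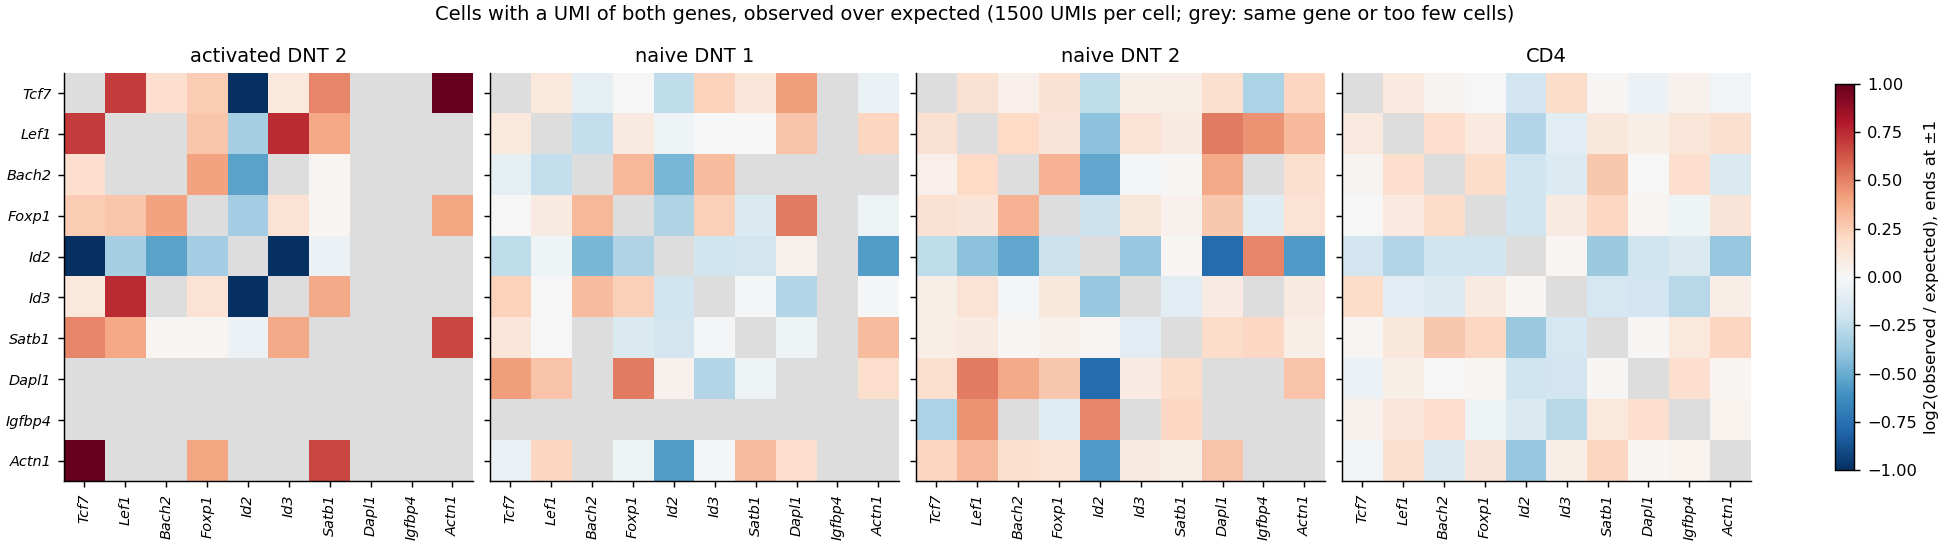
Log2 of the observed over the expected number of cells with a UMI of both genes, for each pair of the 10 genes, in activated DNT replicate 2, naive DNT replicates 1 and 2 and CD4, after thinning to 1500 UMIs per cell; red is above and blue below expectation, and grey marks the same gene or too few cells. The Id2 row is mostly blue, and Tcf7 with Actn1 in activated replicate 2 is the strongest red at a ratio of 2.38.

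Thinned cells with and without a Tcf7 UMI were then set side by side, as sums within a library and with no test. A thinned cell without a Tcf7 UMI may still express Tcf7, since unthinned 52.0% and 82.2% of naive cells had a Tcf7 UMI. Cells with markers of other types were not left out. In the naive libraries cells with Tcf7 had less Id2: 141 and 177 CPM with Tcf7, against 200 and 276 CPM without, ratios of 0.709 and 0.644. The same ratio was 0.679 and 0.322 in activated DNT cells, and 0.705, 0.942 and 0.846 in CD4, CD8 and TCRab, so it was below 1 in 7 of 7 libraries, though the interval included 1 in activated replicate 1, CD8 and TCRab. Dapl1 was higher in naive cells with Tcf7, at 91.9 and 53.1 CPM against 58.6 and 39.8 CPM without (ratios 1.57 and 1.33), and near even in CD4, CD8 and TCRab at 0.994, 1.06 and 0.977. Lef1 had ratios of 1.69 and 2.13 in the activated libraries and 1.14 and 1.20 in the naive ones, and its interval included 1 in replicate 1 of both groups. Of the 9 other genes, 4 (Dapl1, Id3, Lef1 and Satb1) were higher in both naive libraries in cells with Tcf7 and 2 (Id2 and Igfbp4) lower. Among these, only Dapl1 and Id2 had intervals clear of 1 in both naive libraries. The interval included 1 for Satb1 in both, for Lef1 and Igfbp4 in naive replicate 1 and for Id3 in naive replicate 2. Genes of effector cells were divided. Of the 16 effector and memory genes, the ratio was below 1 in both activated libraries for 8 and above 1 in both for 5, and below 1 in both naive libraries for 8 and above 1 in both for 1. In the activated libraries the interval lay under 1 in both for only 3 (Gzmb, Lgals1 and Nkg7) and above 1 in both for 1 (Ccl5). The interval lay under 1 in both naive libraries for 6 of the 16 (Gzma, Gzmb, Lgals1, S100a4, S100a6 and Zeb2) and above 1 for Eomes, which encodes a T-box factor of memory and killer cells. Eomes had ratios of 1.15 and 1.80 in the activated libraries and 1.25 and 1.28 in the naive ones, and its interval in activated replicate 1 included 1 (0.484 to 2.33). Ccl5 had 1.45 and 2.44 in the activated libraries and 0.933 and 1.08 in the naive ones. Gzma was at 5.87 and 6.12 CPM in naive cells with Tcf7, against 84.3 and 55.4 CPM in naive cells without it, ratios of 0.0696 and 0.111. Zeb2 had ratios of 0.194 and 0.334 in the activated libraries and 0.182 and 0.430 in the naive ones. Cells with Tcf7 held only 1 Zeb2 UMI in activated replicate 1 (interval 0.00486 to 1.11) and 2 in naive replicate 1 (0.0212 to 0.714). Gzmb had 0.620 and 0.323 in the activated libraries and 0.122 and 0.396 in the naive ones, with 3 Gzmb UMIs in cells with Tcf7 of naive replicate 1. Myb, a factor linked to stem-like T cells, was higher with Tcf7 in 7 of 7 libraries, at ratios of 1.27 to 2.31, and its counting interval excluded 1 in activated replicate 2 (1.39 to 3.82) and naive replicate 2 (1.23 to 1.69).

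Dapl1 and Igfbp4 were both rare in naive DNT cells, and were found together more often than the product of their shares gives. Among unthinned naive cells, 395 (9.76%) and 539 (8.01%) had a UMI of Dapl1 alone, 75 (1.85%) and 195 (2.90%) of Igfbp4 alone, and 32 (0.790%) and 46 (0.684%) of both. The product gives 11.3 and 20.9 cells, so the ratios were 2.84 and 2.19, on cells of unequal depth. In CD4 1737 cells (34.5%) and in CD8 1437 cells (30.9%) had both, ratios of 1.12 and 1.08. Id2 parted the classes. In naive cells with Igfbp4 alone Id2 was at 519 and 389 CPM, against 190 and 252 CPM in naive cells with neither, ratios of 2.72 (95% interval 2.33 to 3.17) and 1.54 (1.43 to 1.66). In naive cells with Dapl1 alone Id2 was at 112 and 113 CPM, ratios of 0.588 and 0.448. In CD4, CD8 and TCRab the ratio for Igfbp4 alone was 0.580, 0.811 and 0.590, and in the activated libraries, where few cells had Igfbp4, it was 1.79 and 0.715. Naive cells with both genes had the most Lef1, at 293 and 375 CPM against 141 and 182 CPM in cells with neither (ratios 2.08 and 2.06), while Tcf7 was at 150 and 288 CPM against 187 and 307 CPM. What part of the Igfbp4 class carries its own transcript was not tested.

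**Figure D5:**
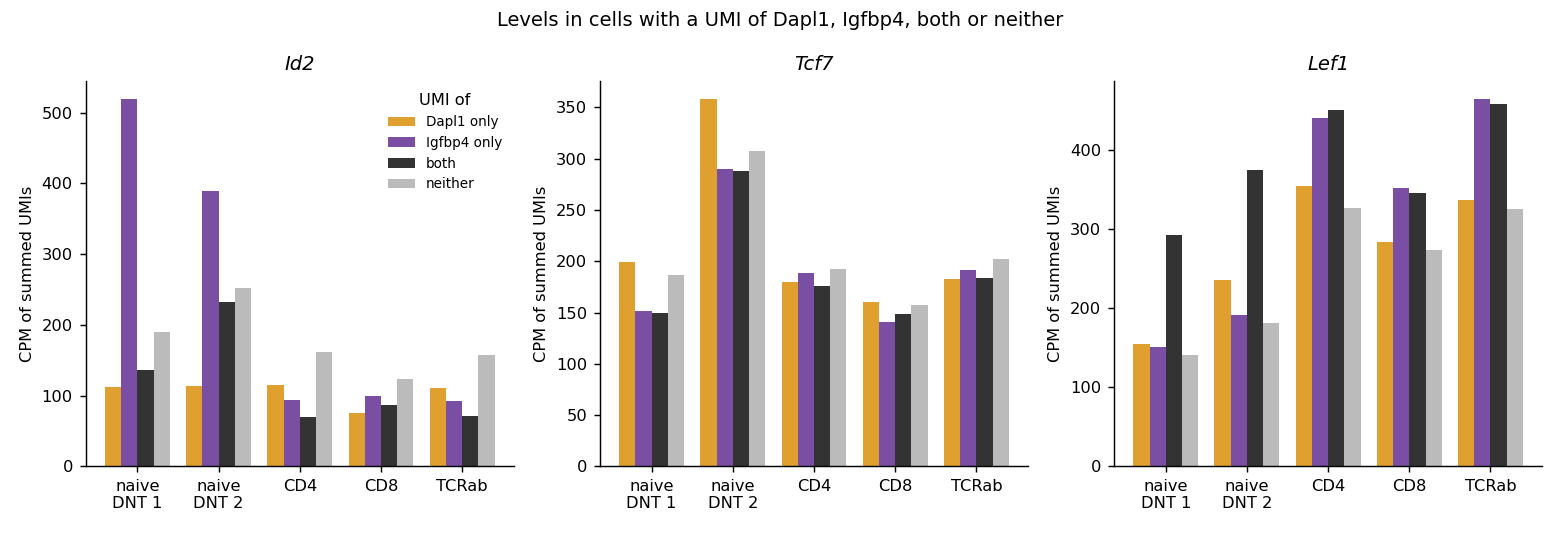
CPM of Id2, Tcf7 and Lef1 in cells with a UMI of Dapl1 alone, Igfbp4 alone, both or neither, in 2 naive DNT libraries, CD4, CD8 and TCRab; bars start at 0 and each is 1 sum over the cells of a class. Id2 is highest beside Igfbp4 alone in both naive libraries (519 and 389 CPM) and highest in cells with neither gene in CD4, CD8 and TCRab, and Lef1 in naive cells is highest where both are found.

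Over the 7 libraries the levels of the 10 genes were compared as log2(CPM + 1) with those of 6277 genes that reached 20 CPM in at least 1 library. These correlations describe 7 points that share preparations and kits. Closest to Lef1 were Rnf167 (r = 0.996), Fam101b, Tpcn1, Gm42722 and Ascc1, and of the 10 genes Actn1 came 26th (r = 0.975), Dapl1 56th (0.956) and Igfbp4 91st (0.939). Tcf7 itself came 496th (r = 0.736). Closest to Tcf7 were Cdc42se2 (r = 0.993), H2-K1, Myl12b, Ezr and Trim12a, and the nearest of the 10 was Actn1 in place 426 (r = 0.858). The level of Lef1 thus followed that of Tcf7 less closely over the libraries than it followed those of Actn1, Dapl1 and Igfbp4.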

How the data were processed

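For 7 libraries of mouse spleen T cells, the authors deposited UMI counts, not normalized, for every gene in every barcode. Cell Ranger 2.1.0 and 3.0.1 and the mm10 build are named in the submitters' processing notes, and version 3.0.2 stands in the headers of the kit v3 matrices. The 10 genes and the gene lists were chosen with earlier results of these data known. Barcodes with 200 or more genes and no more than 10% of UMIs from mitochondrial genes were kept, and levels use the 27514 genes in both kits' references. No doublet caller was run. An alternative instead left out cells above 2 times the median UMI count of their library. Pairs of libraries shared at most 0.838% of the smaller library's barcodes.

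Counts summed per library were filtered with filterByExpr, scaled by TMM and tested with edgeR 4.0.16 (robust quasi-likelihood test, Benjamini-Hochberg adjustment, threshold 0.05) in R 4.3.3, on 2 activated and 2 naive DNT libraries. DESeq2 1.42.0 was an alternative. Replicate numbers mark the kit, a shared batch, and same-numbered libraries deviated together (r = 0.617 over 12325 genes), so blocked values stand beside the calls they change. The test was checked on simulated counts. Text names all 10 genes, at most 8 called genes per list by adjusted p, up to 4 with the largest ratio where no test was possible, and the 5 most like Tcf7 and Lef1. Axin2 in the fit, and Klf2, Gzmb, Gzma, Zeb2, Eomes, Ccl5 and Myb in the comparisons of cells, were named after their values were seen.

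Cells were thinned to 1500 UMIs for shares, co-detection and cells with Tcf7. Shares have exact binomial and levels exact Poisson 95% intervals, and ratios exact conditional ones. Coordinates are on GRCm38, and promoters come from RefSeq (GRCm38.p6). The remaining steps ran in Python 3.11.15 (SciPy 1.17.1, NumPy 2.4.6, matplotlib 3.10.9, pandas 2.3.3). Alternatives are in the closing section. Some genes of the lists are counted but not reported by name here.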

Additional observations from a re-analysis of the deposited data

Results flagged for a closer look

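Id2 beside Igfbp4 went in opposite directions in naive DNT cells and in each single library. In cells with a UMI of Igfbp4 and none of Dapl1, Id2 stood at 2.72 and 1.54 times its level in cells with neither gene in naive DNT replicates 1 and 2, against 0.58 in CD4, 0.811 in CD8 and 0.59 in TCRab. Both naive libraries were above 1 and these 3 libraries below it, while the activated libraries, with few such cells, gave 1.79 and 0.715. The difference itself was not tested, since CD4, CD8 and TCRab have 1 library each.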

How the results depend on the processing

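With replicate number as a block, edgeR called 4894 genes in activated against naive DNT cells in place of 1280, and 1 of the 10 genes higher in place of 0. The count was 2188 with no filter on low counts, 2348 with DESeq2, 336 with cells thinned to 1500 UMIs, 34 without cells of high UMI count and 547 to 2074 when 1 library was left out. Of the 10 genes, 2 stayed lower after thinning and 0 without cells of high UMI count, and leaving 1 library out gave 3 to 5. Without activated replicate 1 or naive replicate 1, Lef1 had an edgeR adjusted p of 0.0661 and 0.0674. Foxp1 ranged from -0.312 (without naive replicate 1) to 0.00899 (without naive replicate 2) on the log2 scale when 1 library was left out. Against the single libraries, the number of the 10 genes higher in naive DNT cells, leaving out 1 naive library, was 0 to 1 for CD4, 1 to 2 for CD8 and 0 to 1 for TCRab, and for CD8 it was 0 after thinning and 0 with a 3-fold rule. Depth moves shares most: the mean share of naive cells with Tcf7 was 30.8% at 1500 UMIs, 44.5% at 2500 UMIs and 67.1% unthinned, and the mean number of the 9 genes per cell 1.43, 2.09 and 3.41. Tcf7 with Id2 had a co-detection ratio of 0.837 in naive cells, 0.888 at 2500 UMIs, 0.970 unthinned, 0.834 without cells with markers of other types and 0.833 without cells of high UMI count. Unthinned, 7 of the 9 other genes, in place of 4, were higher beside Tcf7. The causes were not tested.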
